A study of Homo sapiens with 6 samples.

Results

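The genes described here are 10 genes of thiol redox control, out of 62696 genes in the count tables: NFE2L2, KEAP1, TXNRD1, SRXN1, GCLC, GCLM, SLC7A11, GSR, NQO1 and ME1. They were chosen by name with their differences between these same libraries already known, so the members' own values are given as a description with no p-value, and where members are counted as called, no support is drawn from the count. All 10 had enough counts to enter the fit, and none was lost to the filter on low counts. DMS53 is a human small cell lung cancer (SCLC) cell line. The study asked how its transcriptome differs when the transcription factor ONECUT2 (OC2) is overexpressed, and compared 3 control libraries with 3 OC2-OE libraries. The control cells carried an empty lentiviral vector, pLenti-C-mGFP-P2A-Puro, and the OC2-OE cells carried the same vector with the open reading frame of ONECUT2 joined to mGFP. Both populations were selected with puromycin and grown in RPMI with serum, so vector, selection and medium were shared by the groups. The comparison is of a single cell line at a transgene level far above its own, and in bulk RNA fewer cells that express a gene and less RNA per cell cannot be told apart.

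NFE2L2 encodes NRF2, a basic leucine zipper transcription factor that binds antioxidant response elements (AREs) together with a small MAF protein. KEAP1 is the adaptor through which the CUL3 ubiquitin ligase marks NRF2 for degradation; oxidants and electrophiles modify cysteines of KEAP1, NRF2 then escapes degradation, and its control is therefore exerted mainly on the protein and not on the transcript. Its classical targets supply reducing power through the thioredoxin system, through glutathione and through NADPH, and the KEAP1-NRF2 pathway is mutated in a share of lung cancers.

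The libraries held between 16533284 and 19099337 counts. ONECUT2 itself was at 24.2 to 24.9 CPM (counts relative to the library's total) in controls and at 3863 to 3994 CPM in OC2-OE, a log2 fold change (log2 FC) of 7.32, so each library matched its label. CPM here are scaled by the trimmed mean of M-values (TMM) method. Of 17307 tested genes, 9776 (56.5%) had an adjusted p under 0.001, the threshold used throughout for a call, by the quasi-likelihood test of edgeR, Benjamini-Hochberg adjusted. The variance between libraries of a group was 1.32 to 2.07 times that of counting alone, against 94.1 to 104 times between groups. The study describes independent experiments, while the sample labels give only replicate numbers, so the tests measure the spread between these libraries. Of the neuroendocrine markers of SCLC, 3 of 11 were called higher and 7 lower, with a summed level of 3571 to 3648 CPM in controls and 4633 to 4680 CPM in OC2-OE. SCG2 and UCHL1 carried the higher sum, and the other 9 markers summed to 1731 to 1745 CPM in controls and 936 to 960 CPM in OC2-OE. Of 5 epithelial markers 1 was called higher and 3 lower, with sums of 4055 to 4143 and 3166 to 3225 CPM. Of 10 markers of leukocytes, endothelium and fibroblasts, 5 were tested and 3 were called higher; their sum was 23.5 to 27.6 CPM in controls and 33.5 to 37.1 CPM in OC2-OE, most of it COL1A1, with CD3E at 0 counts in every library. The part of these markers in the members' differences was not tested.

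All 10 members were higher in OC2-OE than in control. Each was called higher, where 27.8% of all tested genes were, and in each the 3 OC2-OE libraries lay above the 3 control libraries, where the groups did not overlap in either direction for 73.2% of tested genes. Since the members were chosen on this contrast, nothing is read from these counts. The members' log2 FCs ran from 0.16 for KEAP1 to 1.63 for TXNRD1 with a median of 0.83, and the median over all tested genes was 0.01. The range was wide: TXNRD1 stood at the 96.3rd percentile of all tested genes and KEAP1 at the 60.7th.

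**Figure D1:**
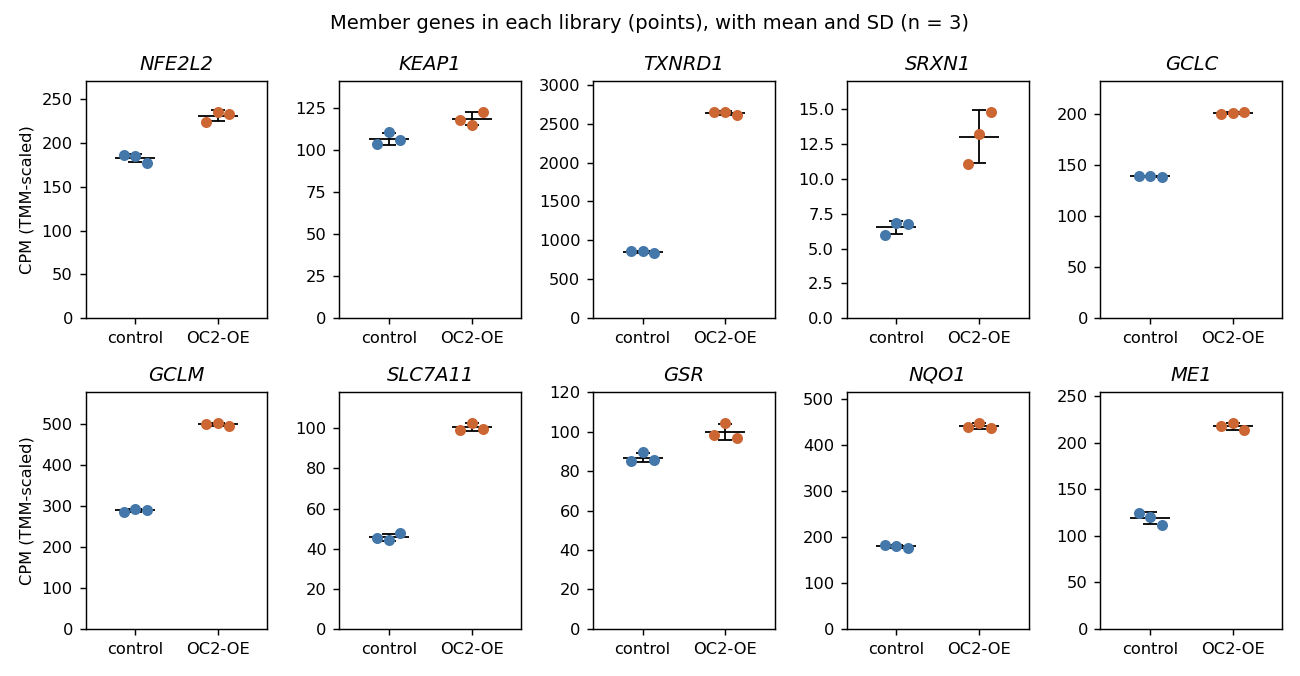
Level of each member in each library, in TMM-scaled CPM on axes that start at 0. Points are the 3 control (blue) and 3 OC2-OE (orange) libraries, horizontal lines the group means and error bars the SD. In every panel the OC2-OE points lie above the control points, and as a ratio the nearest libraries are closest for KEAP1, whose lowest OC2-OE library (115.2 CPM) is near its highest control library (110.6 CPM).

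The letters of the ARE core, TGACNNNGC, were searched on both strands of RefSeq promoter windows, which run from 250 bases before a transcript start to 50 bases after it on GRCh38.p14. Windows were matched by symbol for 8 of the 10 members, 11 windows in all, and GSR and SLC7A11 had none. A match was found in 5 windows of 4 members: TXNRD1, KEAP1, GCLM and ME1. The matches below are shown because they let the members' letters be compared; each is printed 5′ to 3′ along the gene's own strand with 10 bases on either side and the match in capitals. A match on the opposite strand shows its reverse complement.
TXNRD1, first start: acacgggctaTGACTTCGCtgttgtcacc
TXNRD1, second start: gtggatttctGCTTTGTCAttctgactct
GCLM: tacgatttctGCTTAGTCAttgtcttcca
KEAP1, second start, nearer match: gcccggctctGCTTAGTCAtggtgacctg
KEAP1, second start, farther match: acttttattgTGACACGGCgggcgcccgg
ME1, farther match: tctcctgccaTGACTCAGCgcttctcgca

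The TXNRD1 windows lie on the plus strand, at chr12:104215670-104215698 and chr12:104286920-104286948. The GCLM window lies on the minus strand at chr1:93909446-93909474. Those of KEAP1 lie on the minus strand at chr19:10502784-10502812 and chr19:10502807-10502835, and that of ME1 on the minus strand at chr6:83431170-83431198. Measured from the transcript start, the matches ended 91 and 94 bases upstream for TXNRD1, 26 bases upstream for GCLM, 23 and 46 bases upstream for KEAP1 and 129 bases upstream for ME1. In GENCODE release 29, an older release than that of the counts, both KEAP1 matches and that of the second start of TXNRD1 lie wholly inside an annotated exon; 1 base of the GCLM match does, and the others shown lie outside exons. GCLM and the nearer KEAP1 match carry the same 9 letters, TGACTAAGC on the opposite strand. The ME1 match also contains TGACTCA, the letters bound by AP-1 factors, so the 2 motifs cannot be told apart there. TXNRD1 and ME1 each held 1 more match at or just after a start.

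The search letters are common. Of 35116 windows of 300 bases, 13.3% held a match, and of 12264 tested genes with a window, 19.2% did. The tested genes with a match were called higher in 30.9% of cases and lower in 30.4%, beside 29% called higher among all tested genes with a window, and their median log2 FC was 0.00. The windows of NFE2L2, SRXN1, GCLC and NQO1 held no match, which says only that these letters are not in these windows. The ONECUT letters ATCGAT or ATTGAT, searched on both strands, were in none of the 11 members' windows and in 7.0% of all windows. Within the members a match went with both ends of the range of differences, since TXNRD1 and KEAP1 both held one. A match is a run of letters and no measurement of binding.

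**Figure D2:**
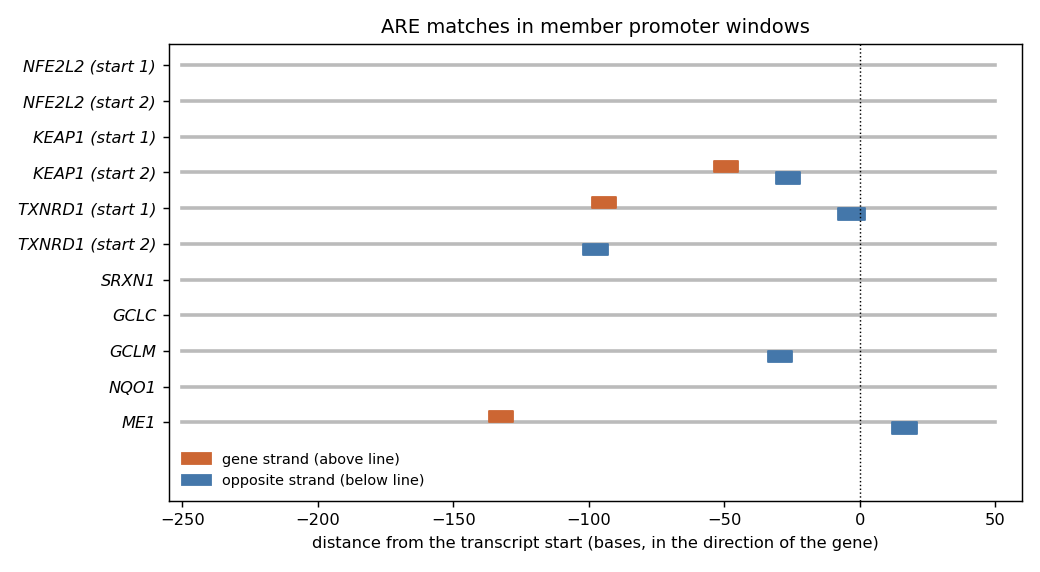
Position of ARE core matches in the 11 promoter windows of 8 members, in bases from the transcript start along the gene. Grey lines are the windows, blocks above a line are matches on the gene strand and blocks below it on the opposite strand. Matches lie in 5 windows, of KEAP1, TXNRD1, GCLM and ME1, and NFE2L2, SRXN1, GCLC and NQO1 have none.

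The regulator and its adaptor differed little. NFE2L2, on chromosome 2 from 177218667 to 177392756, was at 186.3, 185.2 and 177.6 CPM in controls 1 to 3 and at 224.0, 235.3 and 233.5 CPM in OC2-OE 1 to 3. The means were 183 ± 4.75 and 231 ± 6.08 CPM (SD, n = 3), a log2 FC of 0.33 (standard error, SE, 0.028). The groups did not overlap, and the lowest OC2-OE library was 1.20 times the highest control library. Its exons overlap those of an unnamed gene on the same strand (ENSG00000213963) over 2037 bases; read pairs that fall in both were counted to neither, and that gene went from 78 to 110 counts in controls to 190 to 202 in OC2-OE.

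KEAP1, on chromosome 19 from 10486125 to 10503558, was at 103.5, 110.6 and 106.0 CPM in the controls and at 118.1, 115.2 and 122.7 CPM in OC2-OE. Its means were 107 ± 3.57 and 119 ± 3.77 CPM (SD, n = 3), and its log2 FC of 0.16 (SE 0.035, 95% interval 0.09 to 0.22) was the smallest of the members. The nearest libraries of the groups were within 1.04 times of each other. Leaving out control replicate 1 or OC2-OE replicate 3 gave a log2 FC of 0.13 or 0.14, and KEAP1 was then no longer called. Per kilobase of exon, the ratio of NFE2L2 to KEAP1 was 0.50, 0.46 and 0.46 in controls 1 to 3 and 0.52, 0.56 and 0.53 in OC2-OE 1 to 3. This transcript ratio was thus slightly higher in OC2-OE without overlap, and it holds no measure of either protein.

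The thioredoxin arm held the largest difference. TXNRD1 is the cytosolic selenoprotein that reduces thioredoxin with NADPH, and lies on chromosome 12 from 104215779 to 104350307. It was at 857.7, 861.6 and 836.3 CPM in the controls and at 2644, 2650 and 2610 CPM in OC2-OE, with 44043 counts summed over the controls and 144133 over OC2-OE. The means of 852 ± 13.6 and 2635 ± 21.9 CPM (SD, n = 3) gave a log2 FC of 1.63 (SE 0.019), or 3.09-fold. TXNRD1 was the most abundant member in both groups and accounted for 69.9% of the rise in the members' summed CPM, which went from 1978 to 2032 in controls to 4528 to 4598 in OC2-OE. Without TXNRD1 the sum was 1157 ± 14.7 CPM in controls and 1925 ± 20.1 CPM in OC2-OE (SD, n = 3), a 1.66-fold difference.

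SRXN1 encodes sulfiredoxin, which restores peroxiredoxins that peroxide has over-oxidised, and lies on chromosome 20 from 646615 to 653200. It was at 5.99, 6.81 and 6.76 CPM in the controls and 11.1, 13.3 and 14.8 CPM in OC2-OE, a log2 FC of 1.00 (SE 0.11, 95% interval 0.79 to 1.22). SRXN1 had the widest relative spread of the members, with a coefficient of variation of 14.5% in OC2-OE and 7.04% in controls, and rested on 336 and 712 summed counts. Of its 2528 exon bases, 2292 are shared with an unnamed gene on the same strand (ENSG00000270299) that has 0 counts in every library. Pairs in that stretch could be assigned to neither gene, so the SRXN1 counts come from what is left and its level is understated.

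The genes of glutathione synthesis were all higher, by different amounts. GCLC is the catalytic subunit of glutamate-cysteine ligase, the rate-limiting enzyme of glutathione synthesis, on chromosome 6 from 53497341 to 53616970. It was at 139.3, 139.7 and 138.9 CPM in the controls and at 200.2, 201.4 and 202.4 CPM in OC2-OE. Its libraries were nearly alike within each group, and the means of 139 ± 0.41 and 201 ± 1.10 CPM (SD, n = 3) gave a log2 FC of 0.53 (SE 0.030). The GCLC exons share 529 bases with an unnamed gene on the same strand (ENSG00000231683), and pairs in both were counted to neither. That gene had 4 to 9 counts in controls and 48 to 57 in OC2-OE.

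GCLM, the modifier subunit of the same enzyme, on chromosome 1 from 93885199 to 93909456, was at 285.0, 293.2 and 290.7 CPM in the controls and at 500.1, 504.3 and 497.2 CPM in OC2-OE. Its log2 FC was 0.79 (SE 0.023, 95% interval 0.74 to 0.84), beside 0.53 (95% interval 0.47 to 0.59) for GCLC. The catalytic to modifier ratio per kilobase was correspondingly lower in OC2-OE, at 0.323 ± 0.005 in controls and 0.270 ± 0.003 in OC2-OE (SD, n = 3), and the groups did not overlap.

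SLC7A11 is xCT, the light chain of the cystine-glutamate exchanger that brings in cystine for glutathione, on chromosome 4 from 138164097 to 138242349. Its levels were 45.3, 44.1 and 47.7 CPM in the controls and 99.1, 102.8 and 99.8 CPM in OC2-OE. The log2 FC was 1.14 (SE 0.042), or 2.20-fold, with no overlap. It exceeded those of both ligase subunits, while per kilobase SLC7A11 had the lowest level of the members in each group, at 4.74 ± 0.19 and 10.4 ± 0.20 CPM per kilobase (SD, n = 3).

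GSR, glutathione reductase, returns oxidised glutathione to its reduced form with NADPH; it lies on chromosome 8 from 30678066 to 30727846. It was at 85.2, 89.5 and 85.9 CPM in the controls and at 98.1, 104.6 and 96.9 CPM in OC2-OE. The log2 FC was 0.20 (SE 0.038, 95% interval 0.13 to 0.28), and the lowest OC2-OE library was 1.08 times the highest control library. The reductase of glutathione therefore differed far less than the reductase of thioredoxin, and the ratio of TXNRD1 to GSR per kilobase was 5.27 ± 0.12 in controls and 14.2 ± 0.50 in OC2-OE (SD, n = 3).

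NQO1 and ME1 handle quinones and NADPH. NQO1, the NAD(P)H quinone dehydrogenase often used as a readout of NRF2, lies on chromosome 16 from 69706996 to 69726668. It was at 183.2, 181.2 and 176.2 CPM in the controls and at 440.7, 449.3 and 436.8 CPM in OC2-OE, a log2 FC of 1.30 (SE 0.025), or 2.45-fold. The difference was the next largest after that of TXNRD1, and in both groups the spread was narrow, with coefficients of variation of 1.98% and 1.45%.

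ME1 is the cytosolic malic enzyme, which makes NADPH from malate, on chromosome 6 from 83210402 to 83431051. Its levels were 124.5, 120.5 and 111.7 CPM in the controls and 218.1, 221.7 and 214.1 CPM in OC2-OE. The log2 FC was 0.87 (SE 0.031), or 1.83-fold, and the groups stood well apart although control library 3 was the lowest of its group.

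**Figure D3:**
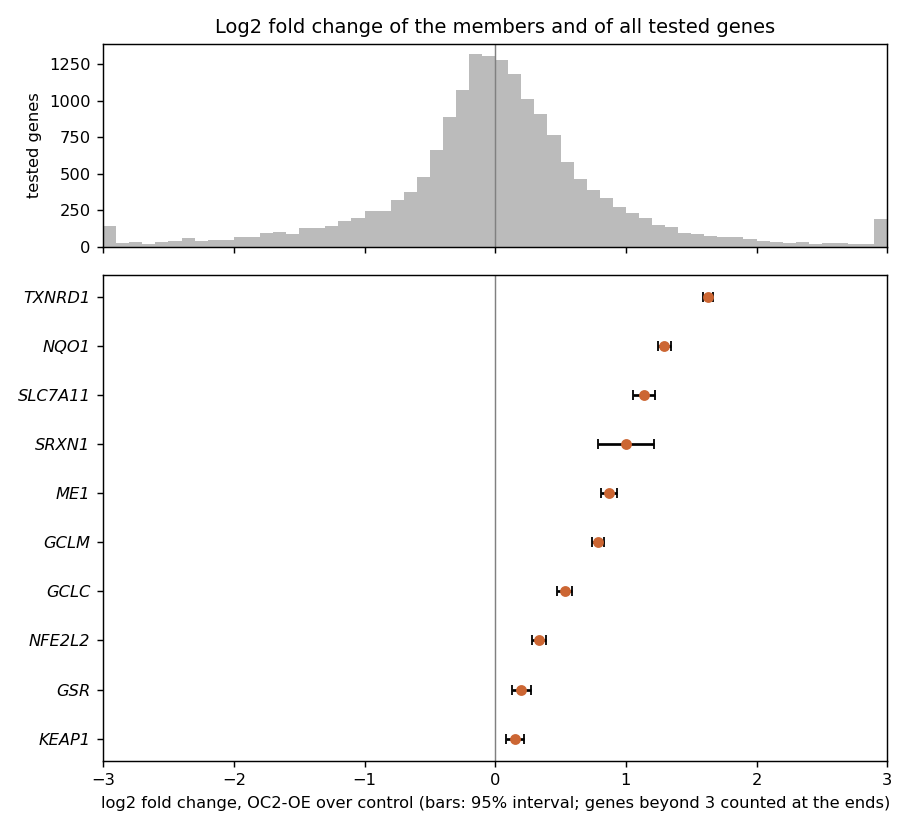
Log2 fold change of OC2-OE over control for the 10 members (lower panel, points with 95% intervals from edgeR) under the distribution over all 17307 tested genes (upper panel, genes beyond 3 counted in the end bars). The members run from 0.16 (KEAP1) to 1.63 (TXNRD1).

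In order of the log2 FC, TXNRD1 was followed by NQO1, SLC7A11, SRXN1, ME1, GCLM, GCLC, NFE2L2, GSR and KEAP1. The errors of neighbours in this order overlapped for SLC7A11 and SRXN1, SRXN1 and ME1, ME1 and GCLM, and GSR and KEAP1, so their order is not settled, and the order as a whole describes values that chose the members. The 3 members under a log2 FC of 0.40, the upper quartile of all tested genes, were thus the factor, its adaptor and glutathione reductase, while all others exceeded it.

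Levels between genes were compared per kilobase of exon that no other gene shares on the same strand. In the controls TXNRD1 was highest at 127 ± 2.03 CPM per kilobase, followed by NQO1 at 60.7 ± 1.20, GCLM at 53.4 ± 0.77 and ME1 at 35.6 ± 1.97 (SD, n = 3). KEAP1, SRXN1 and GSR lay close together at 29.9 ± 1.00, 27.6 ± 1.95 and 24.1 ± 0.64 CPM per kilobase, and KEAP1 and SRXN1 did not differ beyond their spread. NFE2L2 (14.2 ± 0.37) and GCLC (17.2 ± 0.05) were low, only above SLC7A11. In OC2-OE the order of TXNRD1, NQO1, GCLM and ME1 was kept, at 393 ± 3.26, 149 ± 2.15, 92.2 ± 0.66 and 65.3 ± 1.14 CPM per kilobase, and SRXN1 at 55.3 ± 8.0 stood above KEAP1 at 33.2 ± 1.05. The lengths are the union of all annotated exons, rarely used ones included, so levels of genes with long unions such as NFE2L2 are understated, and the 236 bases left for SRXN1 make its value the least certain.

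**Figure D4:**
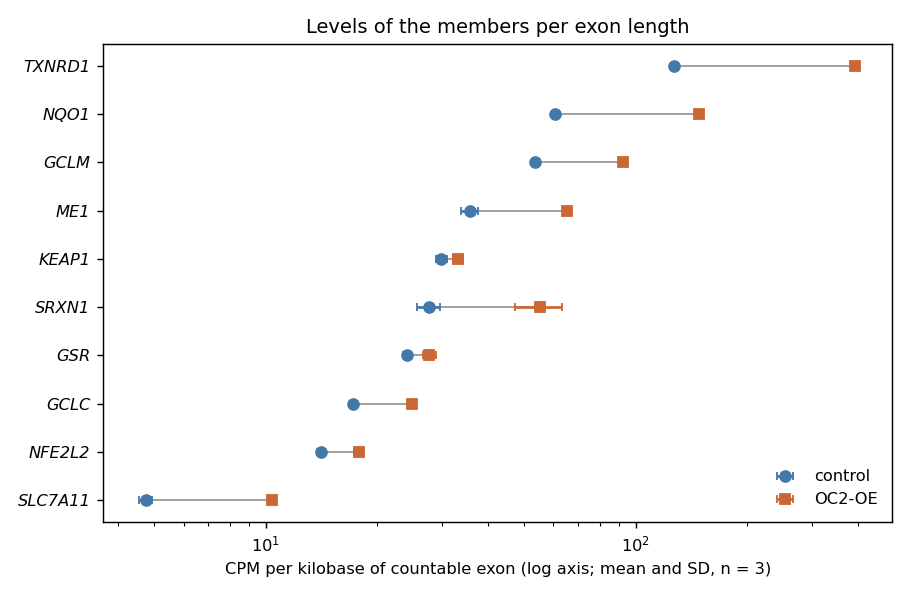
Level of each member per kilobase of exon not shared with another gene on the same strand, on a log axis, as group mean and SD over 3 libraries (blue circles control, orange squares OC2-OE). TXNRD1 is highest in both groups (127 and 393 CPM per kilobase) and SLC7A11 lowest (4.74 and 10.4).

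The wider pathway was read from 10 lists of 180 other genes, of which 174 were tested; 81 were called higher, 41 lower and 52 were not called, where 27.8% of all tested genes were called higher and 28.7% lower, and their median log2 FC was 0.11. The lists differed from each other. They were written with earlier results known, so each list as a whole is described by counts and a median, with no test; adjusted p-values of single genes are from the fit over all 17307 tested genes.

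Of 28 further NRF2 targets, 26 were tested, 18 rose, 3 fell and 5 were not called, with a median log2 FC of 0.69. HMOX1, heme oxygenase, rose the most, from 2.46, 2.09 and 3.57 CPM to 28.9, 29.4 and 28.7 CPM, a log2 FC of 3.42 (SE 0.11). It was low in the controls and the OC2-OE libraries stood 8.03 times or more above them. AKR1C2, an aldo-keto reductase, followed with a log2 FC of 3.38 (SE 0.070); AKR1C1, its near-identical neighbour, was at 1.93. Pairs that aligned to both were left out of the counts, so the values of these genes rest on what differs between them and are uncertain. BLVRB, a biliverdin reductase, rose by 2.17 on the log2 scale (SE 0.054), while the biliverdin reductase BLVRA was at 0.02 and not called. Ferritin light chain FTL rose by 1.13, and UGDH, which makes UDP-glucuronic acid for conjugation, by 1.38. TRIM16, EPHX1 and ALDH3A1 fell, with log2 FCs of -1.23, -0.66 and -1.33, so genes counted as NRF2 targets moved in both directions. ALDH3A1 was low, with 100 summed counts in controls and 42 in OC2-OE, so the size of its fall is uncertain.

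Of 18 genes that control NRF2, all tested, 6 rose, 7 fell and 5 were not called, with a median of -0.03. The largest difference was in SQSTM1, the autophagy receptor p62 that binds KEAP1, which was at 995.5, 1009 and 1022 CPM in the controls and at 2163, 2174 and 2181 CPM in OC2-OE, a log2 FC of 1.11 (SE 0.019). NFE2L1, a related factor that regulates proteasome genes, rose by 0.83 on the log2 scale (SE 0.021) and NFE2L3 by 0.45 (SE 0.088). BACH1, a repressor that competes for the same elements, rose by 0.32 (SE 0.046). Of the small MAF partners MAFF rose by 0.60 (SE 0.065), while MAFG and MAFK had log2 FCs of -0.11 and -0.07 and were not called (adjusted p = 0.00251 and 0.174 by the same edgeR test with Benjamini-Hochberg adjustment). CUL3 and RBX1, the scaffold and RING subunit of the ligase that KEAP1 serves, fell by 0.18 and 0.35 on the log2 scale.

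The thioredoxin list of 20 genes was divided, with 8 higher, 4 lower and 8 not called and a median of 0.01. TXN, the substrate of TXNRD1, was at 109.7, 112.2 and 109.4 CPM in the controls and 126.3, 126.7 and 128.0 CPM in OC2-OE, a log2 FC of 0.20 (SE 0.034). It rose, by far less than its reductase. The mitochondrial reductase TXNRD2 had a log2 FC of 0.05 (SE 0.070) and was not called (adjusted p = 0.524, same edgeR test and adjustment), and TXNRD3 rose by 0.66 (SE 0.12) at a level of 4.96 to 8.77 CPM. TXNIP, which binds and inhibits thioredoxin, rose by 0.55. Among peroxiredoxins, peroxidases of which most are recharged by thioredoxin, PRDX1 rose by 0.87 (SE 0.023) and PRDX4 and PRDX5 by 0.71 and 0.23, PRDX2 and PRDX3 fell by 0.35 and 0.34, and PRDX6 was at -0.04 and not called. The methionine sulfoxide reductases MSRB3 and MSRB1 moved apart, at 1.86 and -0.86.

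Of 31 genes of glutathione use, 13 rose, 7 fell and 11 were not called, with a median of 0.08. GSS, the enzyme that completes glutathione after the ligase, rose by 0.53 on the log2 scale (SE 0.045), the same size as the difference of GCLC. GPX2, a glutathione peroxidase of epithelia, was at 120.6, 115.0 and 110.8 CPM in the controls and 462.8, 456.3 and 469.5 CPM in OC2-OE, a log2 FC of 2.0 (SE 0.027). GPX4, which reduces lipid peroxides, had a log2 FC of -0.08 (SE 0.032) and was not called (adjusted p = 0.0249, same edgeR test and adjustment). The transferase GSTM2 rose by 2.23 from a low level of 0.90 to 1.23 CPM, GSTP1 by 0.84 and GGT7 by 1.26, and CHAC1, which breaks glutathione down, rose by 0.85. CHAC2 and GSTM3 fell, at -1.09 and -0.51.

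In cystine and cysteine supply, 3 of 9 tested genes rose, 3 fell and 3 were not called, with a median of 0.02. SLC3A2, the heavy chain that pairs with SLC7A11, rose by 0.35 on the log2 scale (SE 0.026), from 221.5, 221.7 and 234.7 CPM to 294.0, 283.8 and 283.7 CPM. CTH, which makes cysteine from cystathionine, rose by 0.76, and the transporter SLC1A1 and AHCY fell by 0.58 and 0.55.

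Of 17 tested genes of NADPH supply, 7 rose, 6 fell and 4 were not called, with a median of 0.10. PGD, a dehydrogenase of the pentose phosphate pathway, was at 0.04 and not called (adjusted p = 0.132, same edgeR test and adjustment), and TKT, a transketolase of that pathway, fell by 0.60 on the log2 scale. The cytosolic IDH1 rose by 1.21 (SE 0.023) while the mitochondrial IDH2 fell by 1.90 (SE 0.028). H6PD, a dehydrogenase of the endoplasmic reticulum, rose by 1.46. ME2, a mitochondrial malic enzyme that works mainly with NAD+, rose by 0.83 (SE 0.034), beside 0.87 for ME1. ME3 was at 0.14 and not called (adjusted p = 0.0428, same edgeR test and adjustment).

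Among 9 tested superoxide and peroxide enzymes 5 rose, 2 fell and 2 were not called, with a median of 0.10; SOD2 rose by 0.56 and CAT and DUOX1 fell by 0.37 and 2.24. Of 16 genes of selenoprotein synthesis and selenoproteins, 5 rose, 3 fell and 8 were not called, with a median of 0.05. SEPHS2, which makes the selenium donor that TXNRD1 also needs, rose by 0.36, SELENOM and SELENON rose by 1.86 and 0.84, and SELENOW fell by 1.17. In the list of lipid peroxide defence 3 of 9 rose and 4 fell, with a median of 0.04. That list also holds genes that promote lipid peroxidation, LPCAT3 among them, so its counts give no direction of defence. LPCAT3 and DHODH rose by 0.99 and 0.77. GCH1, which starts tetrahydrobiopterin synthesis, fell by 1.06.

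SLC7A11 and CHAC1 are also induced by ATF4, the factor of the integrated stress response, and 13 of 19 genes of that response rose, 2 fell and 4 were not called, with a median of 0.61. STC2, CEBPB and DDIT3 rose, with log2 FCs of 1.80, 1.54 and 1.36, and so did TRIB3 at 1.31. ATF4 itself was at 495.7, 516.4 and 486.6 CPM in the controls and 516.3, 519.7 and 521.7 CPM in OC2-OE, a log2 FC of 0.06 that was not called (adjusted p = 0.02, edgeR's quasi-likelihood test, Benjamini-Hochberg adjusted), and its own control is also largely at translation. Of the enzymes of serine synthesis, PHGDH rose by 0.335 on the log2 scale (SE 0.032), while PSAT1 and PSPH were not called at 0.08 and 0.00. Whether ATF4 or NRF2 had a part in these differences was not tested.

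**Figure D5:**
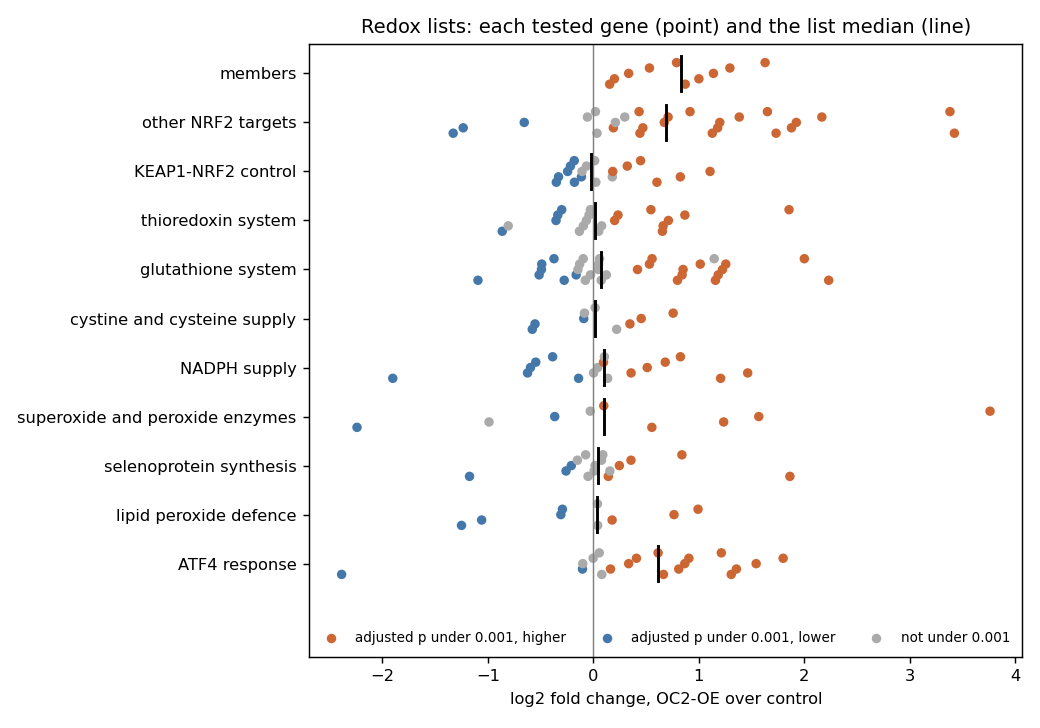
Log2 fold change of OC2-OE over control for the members and for each tested gene of the 10 wider lists. Each point is a gene, orange where called higher, blue where called lower and grey where not called, with height in a row only for spacing; black lines are list medians, which are 0.83 for the members, 0.69 for other NRF2 targets, 0.61 for the ATF4 response and within 0.1 of 0 for the other 8 lists.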

How the data were processed

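RNA-Seq was performed on 6 libraries of DMS53 cells, 3 control and 3 OC2-OE. The authors aligned reads with STAR (version 2.7.9a) and counted read pairs on exons with featureCounts (version 1.6.0); the deposited values are raw counts for genes of GENCODE release 42 (GRCh38). Counting used strand, and pairs shared by genes or aligned to several places were left out. Groups follow the sample labels. In R (version 4.3.3), edgeR (version 4.0.16) with TMM scaling, filterByExpr and its robust quasi-likelihood test compared the groups, with Benjamini-Hochberg adjustment over 17307 genes and a threshold of 0.001. The interval is 95%. On simulated counts, 177 of 197 changed genes were recovered with 0 false calls among 17051. The simulation changed few genes, about as many up as down, and gave every gene the same dispersion. The data differ in this, so it gives no error rate for the calls made here. Genes named on the wider lists are a written list of partners, paralogs and pathway neighbours of the members (GPX4, PGD and CHAC1 among them) and, from each list, 3 called genes chosen by the size of their log2 FC, at a mean log2 CPM of at least 1. TRIB3, FTL, UGDH, BLVRA, TRIM16, EPHX1, ALDH3A1, AKR1C1, RBX1, PRDX2 to PRDX6, CHAC2, GSTM3, GSTP1, TKT, SEPHS2, PHGDH, PSAT1 and PSPH were added after their values were seen. Alternatives were limma (version 3.58.1) voom, DESeq2 (version 1.42.0), other scalings, filters and thresholds, a replicate block and leaving out each library. Members and lists were chosen with earlier results of these data known. A gene of the NADPH list is not reported here by name.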

Additional observations from a re-analysis of the deposited data

How the results depend on the processing

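Over all 15 alternative fits the log2 fold changes of the members kept their direction, with ranges of 0.31 to 0.39 for NFE2L2, 0.13 to 0.21 for KEAP1, 1.61 to 1.68 for TXNRD1, 0.90 to 1.12 for SRXN1, 0.17 to 0.25 for GSR and 1.28 to 1.35 for NQO1, and only KEAP1 lost its call, in 2 of them. When calls also needed a log2 FC of 1 or more in size there were 2999 genes, 31 wider genes higher, 9 lower and 4 members. DESeq2 called 8385 genes, and an adjusted p under 0.05 gave 12354. Leaving out single libraries gave 8944 to 9340 genes, 75 to 79 wider genes higher, 37 to 41 lower and 9 to 10 members. With the replicate block, 9642 genes, 79 wider genes higher, 41 lower and 10 members were called. Deviations of same-numbered libraries from their group means, over all tested genes, had correlations of -0.001, 0.018 and 0.013. With 3 libraries per group these values cannot exclude a batch shared by number. Counts limit SRXN1 and the wider genes near 1 CPM most.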
